A study of Mus musculus with 8 samples.

Results

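Accessible chromatin was examined at 10 genes of the Hippo pathway in the mouse cell line SN4741, namely Yap1, Wwtr1, Tead1, Tead2, Tead3, Tead4, Lats1, Lats2, Ankrd1 and Amotl2. They are 10 of 21938 protein-coding genes on the assembled chromosomes of GENCODE M21 (mm10), and were listed by name. The locus of each gene was its body with 50 kb on each side, and these loci hold 155 of the 84777 consensus regions, a consensus region being the union of overlapping peaks seen in at least 2 libraries. SN4741 is a line from embryonic mouse substantia nigra, immortalised with a temperature-sensitive SV40 large T antigen and labelled wild type, and the study's karyotypes showed it to be an unstable line with most chromosomes in triploid number. ATAC-seq, in which a transposase inserts adapters into open chromatin, was run on aliquots of 50000 cells with 12 cycles of pre-amplification. The 4 libraries of undifferentiated cells came from the permissive temperature of 37 °C in medium with 10% fetal bovine serum. The 4 libraries of differentiated cells came from the non-permissive temperature of 39 °C in medium with 0.5% serum for 48 hours, so temperature and serum cannot be told apart in any comparison below. The labels do not say that replicates came from separate cultures, so p-values measure only the spread between these libraries, which may be technical.

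The peak lists held 74026 to 92013 peaks at 37 °C and 54845 to 68410 peaks at 39 °C, from 49.8 to 169 M and from 52.7 to 71.2 M fragments kept by the peak caller. Of the markers checked, 4 of 8 neural precursor genes (Sox2, Nes, Pax6 and Msi1) had a promoter peak in all 8 libraries, while Fabp7 and Prom1 had none in any library. Among neuronal markers 3 of 5 had a promoter peak in all 8 libraries and Dcx had none. Of 6 mesenchymal markers, 5 had a promoter peak in all 8 libraries and Thy1 had none. Promoter peaks of some neural and most mesenchymal markers were thus called in the same libraries. Calls were partial for Sox1, Hes5 and Syt1. Over all coding genes, 59.9% had such a peak in all 8 libraries. The median percentile of peak height ran from 74.7 to 96.0 for the 5 mesenchymal markers. For Sox2, Nes, Tubb3 and Map2 it ran from 80.6 to 95.9. Pax6 (34.3), Msi1 (40.0) and Rbfox3 (36.1) stood lower, so presence alone does not make the sets alike.

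In the Hippo pathway the kinases LATS1 and LATS2 phosphorylate the coactivators YAP (gene Yap1) and TAZ (gene Wwtr1) and keep them out of the nucleus. When the kinases are quiet, YAP and TAZ enter the nucleus and bind TEAD factors, which carry the DNA-binding domain and recognise a short core, GGAATG or its reverse complement CATTCC. The pathway is known for tying proliferation to cell density, tension and serum factors, and YAP is known to maintain neural progenitors.

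Sequences are shown first where the TEAD core lies in the open chromatin of the pathway's own genes, with the core in capitals and all other bases in lower case. RefSeq promoter windows (GRCm38.p6, the 250 bases before each transcript start) were matched for 8 of the 10 genes, in 12 windows, some of which overlap. The core was found on either strand in 7 of these 12 windows, belonging to 5 genes (Yap1, Wwtr1, Tead3, Ankrd1 and Amotl2), against 12.6% of all 32851 such windows. No window held an AP-1 site (TGANTCA) or a CArG box, which 6.75% and 1.47% of all windows hold. The windows of Yap1 (chr9:8004597-8004846, minus strand) and Wwtr1 (chr3:57575911-57576160, minus strand), each inside that gene's promoter peak, are given because these genes encode the coactivators themselves. The stretches of Ankrd1 (chr19:36120037-36120066 and chr19:36119950-36119979, minus strand) and Amotl2 (chr9:102717727-102717756, plus strand) are given because both are genes which YAP and TEAD are known to activate. The Ankrd1 cores begin 210 and 123 bases before the RefSeq start, and the Amotl2 core begins 65 bases before it. The GENCODE gene start lies farther upstream in both genes, so on that model these cores lie within the gene. Each sequence is written 5′ to 3′ on the strand of its gene.
Yap1 promoter: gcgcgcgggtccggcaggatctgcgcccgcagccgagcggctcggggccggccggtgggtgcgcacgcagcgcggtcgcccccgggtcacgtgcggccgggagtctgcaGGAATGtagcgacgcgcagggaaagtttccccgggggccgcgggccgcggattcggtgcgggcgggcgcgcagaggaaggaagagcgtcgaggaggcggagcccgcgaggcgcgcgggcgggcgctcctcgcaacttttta
Wwtr1 promoter: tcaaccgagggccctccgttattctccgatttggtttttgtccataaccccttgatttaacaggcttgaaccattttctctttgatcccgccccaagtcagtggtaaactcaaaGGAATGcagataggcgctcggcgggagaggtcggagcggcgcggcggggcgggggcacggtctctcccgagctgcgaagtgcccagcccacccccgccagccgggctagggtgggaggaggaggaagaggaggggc
Ankrd1 upstream core: gtcactgccaaaGGAATGaccctctcacat
Ankrd1 downstream core: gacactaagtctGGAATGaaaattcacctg
Amotl2 core: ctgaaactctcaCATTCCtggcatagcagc

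All 10 genes had a peak within 1 kb of an annotated start in all 8 libraries, as did 59.9% of coding genes. The height of each gene's highest promoter peak was expressed as the percentile of its −log10(q) within the peak list of its own library, called the list percentile. The list percentile depends on how many weak peaks a list holds, and the 39 °C lists are shorter. The same peak was therefore also ranked against the 44861 consensus regions called in all 8 libraries, called the shared percentile. A gene was counted as lower or higher when the 4 values at 39 °C lay wholly below or above the 4 values at 37 °C, which is the pattern that gives the smallest p an exact two-sided permutation test of 4 against 4 allows (0.0286). After Benjamini-Hochberg adjustment no gene or region in any of the tests was under 0.05, the smallest adjusted p of these exact tests being 0.0520 (0.0540 for list percentiles of promoters and 0.128 for shared percentiles). The exact p before adjustment was under 0.05 for 6955 and 2932 of 13145 promoters on these scales, so every difference below is one of separated groups and not of an adjusted call.

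By list percentile 5 of 10 genes were lower at 39 °C (Wwtr1, Tead1, Tead2, Tead4 and Ankrd1) and 0 were higher. Over all 13145 promoters with a peak in all 8 libraries, 52.4% were lower and 0.510% higher, so the share among these genes was near that of promoters at large. The median difference was -2.0 percentile points over the 10 genes and -2.51 over all promoters. By shared percentile 2 genes were lower (Tead4 and Ankrd1), 3 were higher (Yap1, Lats1 and Lats2) and 5 overlapped, where 13.9% of all promoters were lower and 8.44% higher. On the higher side were Yap1 and both kinase genes, the value for Lats2 joining separate regions as described below, and on the lower side were a TEAD gene and a target gene. In rank at 37 °C, Amotl2 (list percentile 98.7 to 99.4) and Wwtr1 (98.6 to 99.5) stood highest and overlapped. Tead4, Lats1, Ankrd1, Tead3 and Lats2 followed, each overlapping its neighbour, between 91.4 and 97.2. Tead1 (89.2 to 90.4) and Yap1 (88.4 to 89.8) overlapped below them, and Tead2 (77.7 to 81.0) stood apart as the lowest of the 10.

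**Figure D1:**
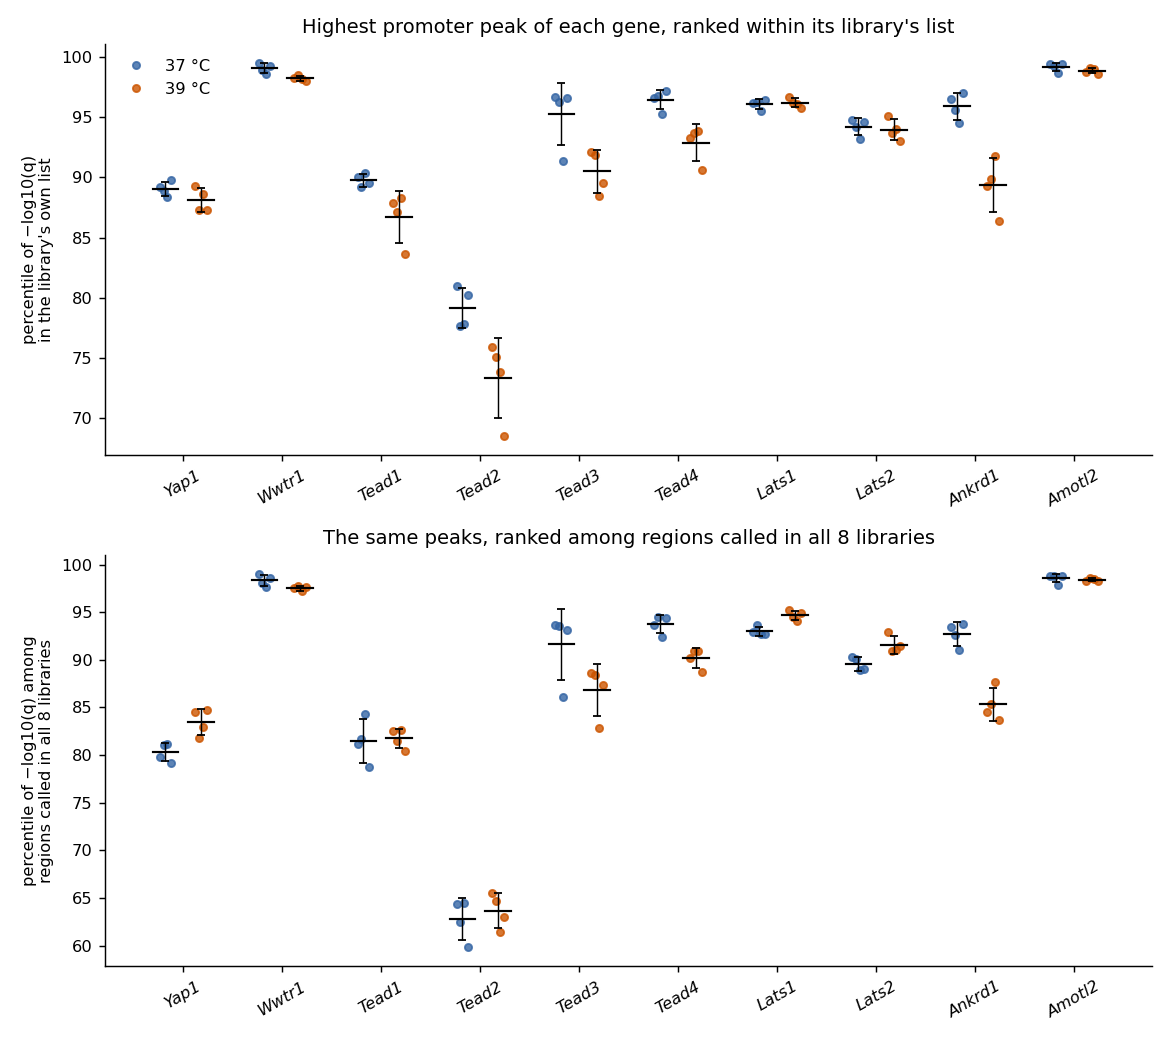
Percentile of −log10(q) of the highest promoter peak of each gene, within its library's own list (top) and among the 44861 regions called in all 8 libraries (bottom). Points are libraries (4 at 37 °C in blue, 4 at 39 °C in orange), bars are means and error bars are SD. The Ankrd1 and Tead4 groups are separated downward in both panels, and the Yap1, Lats1 and Lats2 groups are separated upward in the bottom panel alone.

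Among the coactivator genes, the promoter of Yap1 (chr9:8002615-8005553, also at a start of Gm45494) had a shared percentile of 79.8, 81.1, 81.2 and 79.2 in replicates 1 to 4 at 37 °C and of 84.5, 81.8, 83.0 and 84.7 at 39 °C. Every 39 °C library stood above every 37 °C library, with means of 83.5 ± 1.36 against 80.3 ± 0.999 (SD, n = 4 each) and a difference of 3.16 points. On the list percentile the same peak was level, at 89.1 ± 0.579 and 88.1 ± 0.992, and the groups overlapped. Its width was also level, from 2444 to 2804 bp at 37 °C and from 2452 to 2796 bp at 39 °C. Few other elements surrounded Yap1, with 0 to 3 distal peaks per library. A further Yap1 start inside the gene, in an exon at chr9:7965451-7966215, had a peak in all 4 libraries at 37 °C and in 3 at 39 °C.

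Wwtr1, which encodes TAZ, had a promoter peak (chr3:57570606-57577327) of higher percentile than that of Yap1 in every library. Its list percentile was 99.5, 98.9, 98.6 and 99.3 at 37 °C and 98.3, 98.5, 98.2 and 98.0 at 39 °C, a separated difference of -0.834 points, and on the shared percentile the groups overlapped (98.4 ± 0.553 and 97.5 ± 0.254). The Wwtr1 locus was rich in distal peaks, with 22, 17, 17 and 20 at 37 °C and 17, 14, 17 and 13 at 39 °C, and these groups overlapped. Of its 11 regions called in all 8 libraries, 3 had a lower and 2 a higher shared percentile at 39 °C, where 20.1% of all such regions were lower and 18.4% higher.

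The TEAD genes encode the DNA-binding partners of YAP and TAZ, and 3 of them were the only members with separated counts of distal peaks. Distal peaks, those farther than 1 kb from any annotated start, were fewer at Tead1 (25, 24, 20 and 27 at 37 °C, 18, 15, 19 and 16 at 39 °C), with group means of 24 ± 2.94 and 17 ± 1.83. At Tead2 the counts were 5, 6, 5 and 9 against 3, 3, 4 and 2. At Tead4 they were 13, 11, 10 and 14 against 7, 7, 9 and 7. In each of these 3 loci the lowest 37 °C library stood above the highest 39 °C library. These were 3 of the 10 genes, with 0 higher, where 21.7% of all coding genes had fewer and 0.191% had more distal peaks at 39 °C. When only the 54845 strongest peaks of each library were kept, 0 of the 10 genes were separated in either direction, against 4.18% of all genes lower and 3.30% higher. At equal numbers Tead1 held 13 to 17 distal peaks at 37 °C and 13 to 16 at 39 °C, and the number of peaks called moved with the count. The part of list length in the fewer distal peaks was not tested beyond this.

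The other 7 genes had overlapping distal counts. Tead3 had 10, 14, 14 and 11 distal peaks at 37 °C and 9, 7, 10 and 7 at 39 °C, with only the value of 10 shared. Lats2 had 18, 14, 16 and 19 against 16, 15, 20 and 10, the widest spread at 39 °C of the 10 genes. In 39 °C replicates 2, 3 and 4 the narrower 5′ peak of Lats2 ended over 1 kb before the gene start (positions of -1.427, -1.555 and -1.594 kb) and so was counted as distal, and with a promoter distance of 2 kb the mean difference was -2.50 in place of -1.50. Amotl2 had 9, 9, 11 and 10 against 7, 8, 9 and 10, and Lats1 had 2, 1, 1 and 2 against 1, 0, 0 and 0. Ankrd1, with 5, 5, 5 and 7 against 5, 6, 7 and 5, was the only member whose mean was not smaller at 39 °C.

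**Figure D2:**
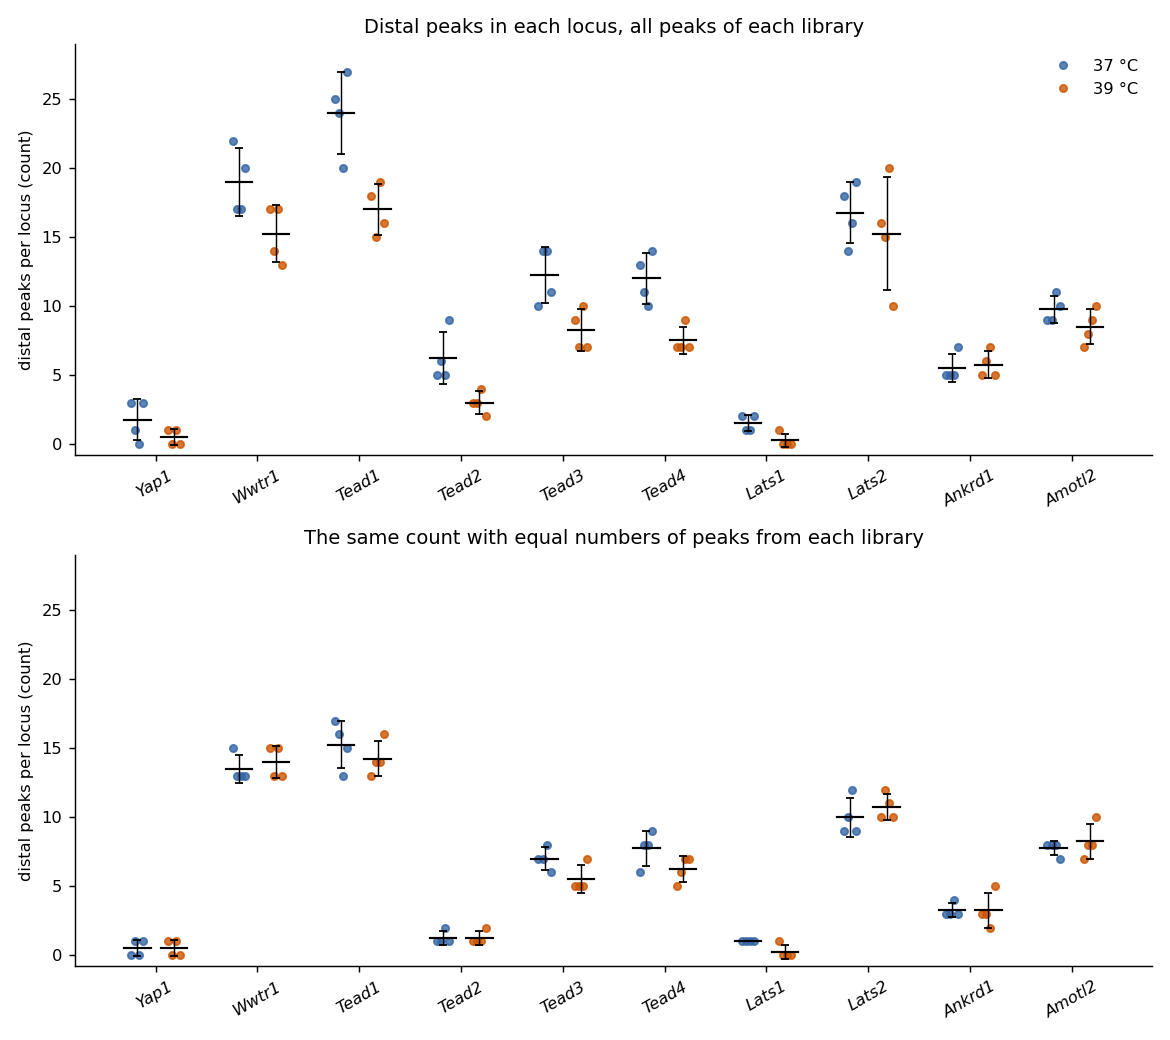
Distal peaks per library in the locus of each gene, from all peaks (top) and from the 54845 strongest peaks of each library (bottom). Points are libraries (4 at 37 °C in blue, 4 at 39 °C in orange), bars are means and error bars are SD. The Tead1, Tead2 and Tead4 groups are apart in the top panel, and no gene's groups are apart in the bottom panel.

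Tead4 was the TEAD gene whose promoter differed on every measure. The highest peak, at the gene start (chr6:128295509-128302324, summit in the first exon), had a shared percentile of 93.7, 94.5, 92.4 and 94.4 at 37 °C and 90.2, 90.9, 90.9 and 88.7 at 39 °C. All 39 °C libraries lay below all 37 °C libraries, with a mean difference of -3.53 points, and of -3.61 in list percentile. The peak was 6816, 6495, 6219 and 6701 bp wide at 37 °C and 3924, 3521, 4035 and 2450 bp at 39 °C, means of 6558 ± 262 and 3482 ± 723 bp (n = 4 each). At 37 °C it ended between 5.031 and 5.314 kb into the gene. In each 39 °C library a separate peak lay over that stretch, from 3.375 to 5.197 kb in replicate 1. Width here thus also counts whether neighbouring peaks were joined. A region at a second Tead4 start, with its summit 25.0 kb into the gene (chr6:128274970-128276611), had the largest difference in shared percentile of the 72 regions called in all 8 libraries. There the shared percentile was 42.4, 41.2, 36.9 and 40.4 at 37 °C and 9.44, 12.3, 17.3 and 15.1 at 39 °C, a difference of -26.7. In the Tead4 locus 4 of 6 regions called in all 8 libraries were lower on the shared percentile and 0 were higher, beside the 20.1% and 18.4% of all such regions.

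At Tead3, annotated starts lie at both ends of the gene, and the library's highest promoter peak was not in the same region throughout. It lay at the 3′ end of the gene, in a region shared with Rpl10a (chr17:28325961-28335310), in 37 °C replicates 1, 2 and 4, and at the gene start (chr17:28347246-28352177) in the other 5 libraries. In these 5 libraries the strongest peak of the Rpl10a region still ranked above the gene start. It lay over 1 kb from every Tead3 start there and so was not counted. In 37 °C replicate 3 its list percentile was 96.4, against 91.4 at the gene start. Taken region by region, the gene start had a shared percentile of 85.9, 85.2, 86.1 and 83.1 at 37 °C and 88.6, 88.4, 82.8 and 87.4 at 39 °C, and the groups overlapped. The Rpl10a region was lower at 39 °C, at 93.6 ± 0.408 against 91.8 ± 0.587. An intronic region whose summit lies 4631 bp from the nearest start (chr17:28337270-28342161) was lower too, at 64.3 ± 2.13 against 54.2 ± 1.41, and so was the intron between it and the gene start (chr17:28342547-28346741), at 45.8 ± 3.90 against 24.7 ± 4.15. Along Tead3 the open chromatin therefore differed over the gene body and its 3′ end while the groups overlapped at the gene start.

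**Figure D3:**
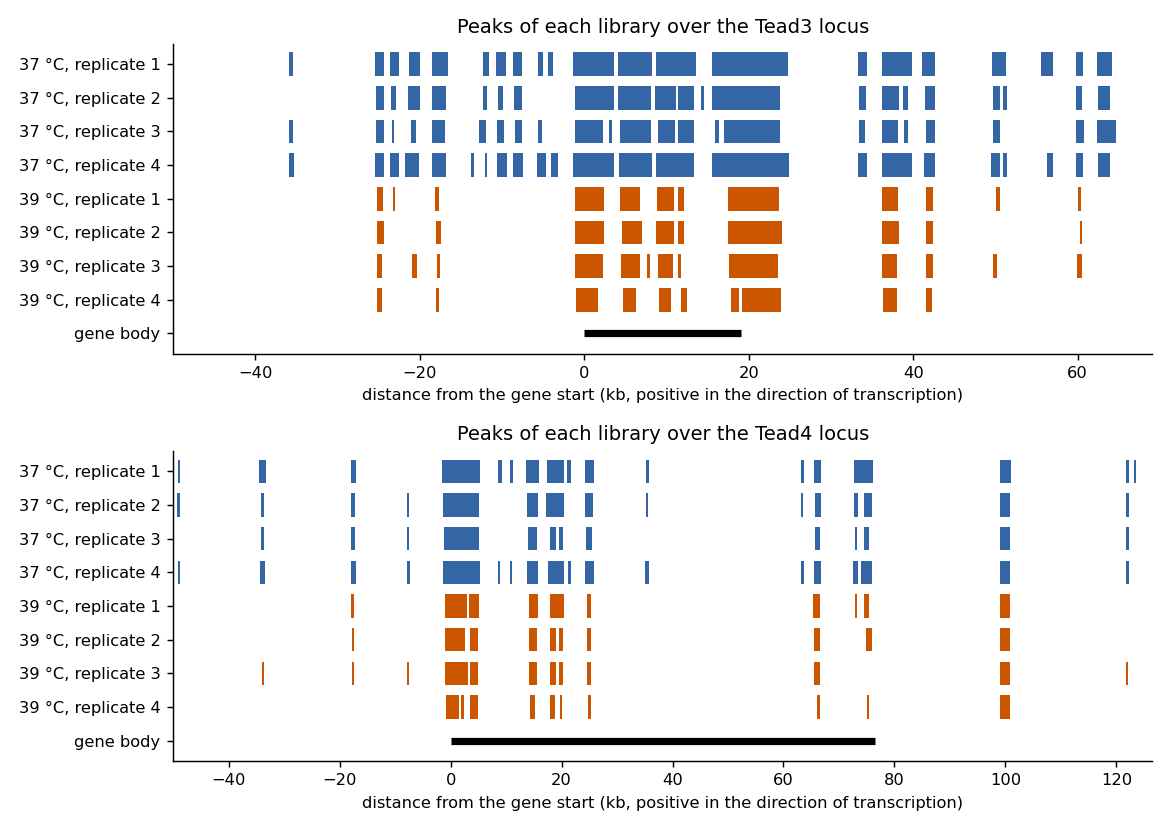
Peaks of each library over the Tead3 locus (top) and the Tead4 locus (bottom), as bars placed by distance in kb from the gene start, positive in the direction of transcription, with the gene body in black. The 4 rows at 37 °C (blue) hold bars on both sides of the Tead3 gene body that the 4 rows at 39 °C (orange) lack, and the bar at the Tead4 start is shorter in all 4 rows at 39 °C.

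Tead1 and Tead2 promoters were lower on the list percentile and overlapped on the shared percentile. The Tead1 gene start (chr7:112678308-112682041, also at starts of 2310014F06Rik) had shared percentiles of 81.5 ± 2.31 and 81.8 ± 1.04, and the Tead2 gene start (chr7:45215162-45217541) of 62.8 ± 2.20 and 63.7 ± 1.80 (37 °C and 39 °C, n = 4 each). Tead1 has further starts inside the gene. In the region that holds one of them, with its summit 11.3 kb in (chr7:112689818-112692510), list percentiles of 46.1, 35, 32.7 and 44.4 at 37 °C stood against 8.89, 7.16 and 0.955 at 39 °C, with no peak in 39 °C replicate 4. An intronic region with its summit 81.6 kb in and 1377 bp from the nearest start (chr7:112760126-112761562) was higher on the shared percentile, at 50.6, 51.4, 49.5 and 51.3 against 56.2, 58.2, 59.6 and 60.4. On the list percentile, the scale both regions have, the second overlapped between the temperatures (72.2 ± 3.37 and 69.6 ± 2.65).

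The LATS kinase genes restrain YAP and TAZ, and on the shared percentile the Lats1 promoter and an internal start of Lats2 were higher at 39 °C while the 5′ region of Lats2 was lower. Lats1 (chr10:7679837-7683370, a region that also holds starts of Pcmt1) was at 92.9, 93.7, 92.7 and 92.7 at 37 °C and 95.2, 94.5, 94.1 and 94.9 at 39 °C, a separated difference of 1.71 points. On the list percentile the Lats1 groups overlapped (96.1 ± 0.390 and 96.2 ± 0.380), and it was the only member whose mean list percentile was not lower at 39 °C. At Lats2 the highest promoter peak was a 5′ region with its summit 2.25 kb upstream of the gene start (chr14:57757842-57763669) in 37 °C replicates 1 and 4 and an internal start, also annotated to Gm49361 (chr14:57739749-57748156), in the other 6 libraries. The count of Lats2 as higher (2.03 points) joins these regions, and they differed in opposite directions when taken alone. The internal start was at a shared percentile of 87.8, 90.1, 88.9 and 88.9 at 37 °C and 92.9, 90.9, 91.0 and 91.5 at 39 °C. The 5′ region was at 90.3, 85.8, 86.3 and 89.0 against 83.9, 83.9, 84.7 and 83.1. The highest peak of each region was narrower at 39 °C, with separated groups and mean differences of -3297 bp at the internal start and -2744 bp in the 5′ region. At the internal start 1 peak ran from 10.232 to 18.639 kb in 37 °C replicate 1. Separate peaks ran from 10.578 to 14.461 kb and from 14.777 to 18.536 kb in 39 °C replicate 1. Width in both regions thus also counts whether neighbouring peaks were joined. In the Lats2 locus 7 of 12 regions called in all 8 libraries were lower and 1 was higher on the shared percentile, and in the Lats1 locus 0 of 4 were lower and 1 was higher. The shares over all such regions were 20.1% and 18.4%, and the loci were not tested against each other.

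Ankrd1 and Amotl2 are standard readouts of YAP activity, the first encoding a muscle ankyrin repeat protein and the second an angiomotin-like protein that itself binds YAP. The single Ankrd1 promoter region (chr19:36108106-36121773, summit in the first exon) is the union of overlapping peaks. A single peak covered the whole gene in 37 °C replicates 1, 2 and 4, and in the other 5 libraries the gene held a peak at its start and further, separate peaks over its body. It had list percentiles of 96.5, 95.6, 94.5 and 97.0 at 37 °C and 89.3, 89.9, 91.8 and 86.4 at 39 °C, and shared percentiles of 93.4, 92.6, 91.0 and 93.8 against 84.5, 85.4, 87.7 and 83.7. The difference in shared percentile, -7.36 points, was the largest in size among the highest promoter peaks of the 10 genes, internal starts not counted, and with equal numbers of peaks it was -6.17 with the groups still apart. Its width was 13668, 12264, 2787 and 12449 bp at 37 °C and 6689, 4331, 4418 and 1769 bp at 39 °C. The low value is of 37 °C replicate 3, the shallowest library, where the peak at the start ended at 1.253 kb and a separate peak ran from 1.655 to 9.986 kb, so width here also counts whether neighbouring peaks were joined. Without that library the mean difference in width was -8492 bp and the groups were apart.

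Amotl2 carried the widest promoter peak of the 10 genes, 25517, 19382, 18995 and 19470 bp at 37 °C and 18882, 19301, 13870 and 13686 bp at 39 °C, in the region chr9:102713358-102738874. The peak reached beyond the end of the gene in 37 °C replicate 1 alone. In height it differed little, with shared percentiles of 98.6 ± 0.434 and 98.4 ± 0.167 (n = 4 each) that overlapped. Values so near the top of the scale leave little room to differ, and the genes Ankrd1 and Amotl2 were not tested against each other. The widths of Tead3 and Lats2 are of the highest peak within 1 kb of a start in each library, so they join separate regions. Over the 10 genes the mean width was smaller at 39 °C in 10 of 10, and the groups were apart in 2 (Tead4 and Lats2), where 23.4% of all promoters were narrower and 0.129% wider. Without 37 °C replicate 3 the groups were apart in 8 of the 10, and in 49.1% of all promoters.

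**Figure D4:**
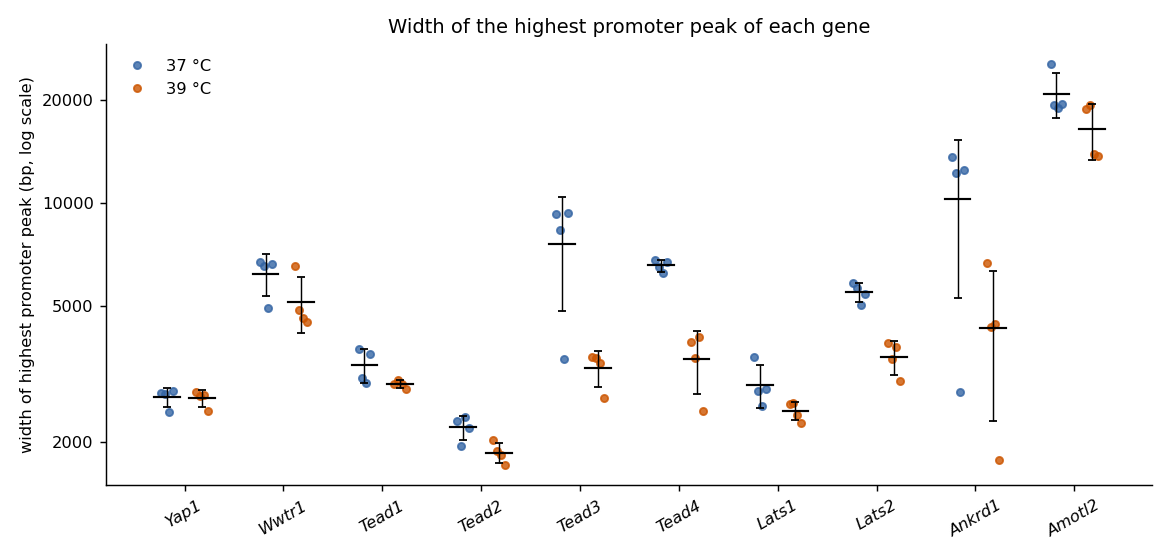
Width in bp (log scale) of the highest promoter peak of each gene. Points are libraries (4 at 37 °C in blue, 4 at 39 °C in orange), bars are means and error bars are SD. The Tead4 and Lats2 groups are apart, and the Yap1 groups lie together. At Ankrd1 and at Tead3, 1 library at 37 °C sits far below the other 3. At Tead3 its highest peak within 1 kb of a start is in another region than theirs.

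Over the 155 regions of the loci, 107 were distal, 18 came within 1 kb of a start of a member and 30 within 1 kb of a start of another gene alone, which is what "at a start" means in the counts below. In 73 regions (47.1%) more libraries had a peak at 37 °C than at 39 °C, and in 6 (3.87%) fewer had, against 37.9% and 5.46% of all consensus regions. Tead4 (11 of 17 regions) and Tead3 (13 of 21) had the largest shares of regions seen in more 37 °C libraries among the 10 loci, and Wwtr1 (6 of 22) the smallest. Regions seen in all 4 libraries at 37 °C and none at 39 °C numbered 8 (5.16%), where 6.04% of consensus regions had this pattern. The reverse pattern was seen in 0 regions, where 0.314% of consensus regions had it. The 8 became 5 with equal numbers of peaks (2.67% of consensus regions) and 21 without 37 °C replicate 3 (10.4%).

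Of these 8 regions, 5 were in the Tead3 locus, and none lay at a start of Tead3. Of these, 3 lay within 1 kb of starts of the neighbouring gene Tulp1, a photoreceptor gene, with list percentiles between 2.80 and 37.5 at 37 °C (chr17:28358327-28359478, chr17:28360224-28361521 and chr17:28362392-28363636). The others lay at a start of the Fanconi anaemia gene Fance (chr17:28316429-28317573) and in an intron of Ppard (chr17:28286180-28288456). The remaining 3 were in an intron of Tead1 (chr7:112743362-112744052), at a start of the vesicular glutamate transporter gene Slc17a7 in the Tead2 locus (chr7:45167231-45169085), and in an intron of Gm5627 near Amotl2 (chr9:102746522-102747136). All were weak peaks, since none exceeded a list percentile of 42.2 in any library. The Tulp1 region in the middle of the 3 was the only one of the 8 with a TEAD core within 100 bp of its summit, and its sequence is shown for that reason (chr17:28360993-28361193, plus strand).
Tulp1 intron: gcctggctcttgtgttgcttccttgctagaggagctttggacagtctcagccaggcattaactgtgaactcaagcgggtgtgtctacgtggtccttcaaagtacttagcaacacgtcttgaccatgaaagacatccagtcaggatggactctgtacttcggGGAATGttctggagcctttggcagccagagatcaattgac

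The 72 regions called in all 8 libraries allow a comparison of height in every library. By list percentile 46 (63.9%) were lower at 39 °C and 0 were higher, against 54.2% and 0.798% of the 44861 such regions. By shared percentile 30 (41.7%) were lower, 10 (13.9%) were higher and 32 overlapped, against 20.1% lower and 18.4% higher. Of 43 distal regions 22 were lower and 5 higher, against 21.8% and 22.8% of the distal consensus regions called in all 8 libraries. Regions at a member's own starts were lower in 6 and higher in 4 of 15, and regions at starts of other genes lower in 2 and higher in 1 of 14, against 16.9% and 10.5% of the consensus regions at starts. Neighbouring regions share a locus and are not independent.

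**Figure D5:**
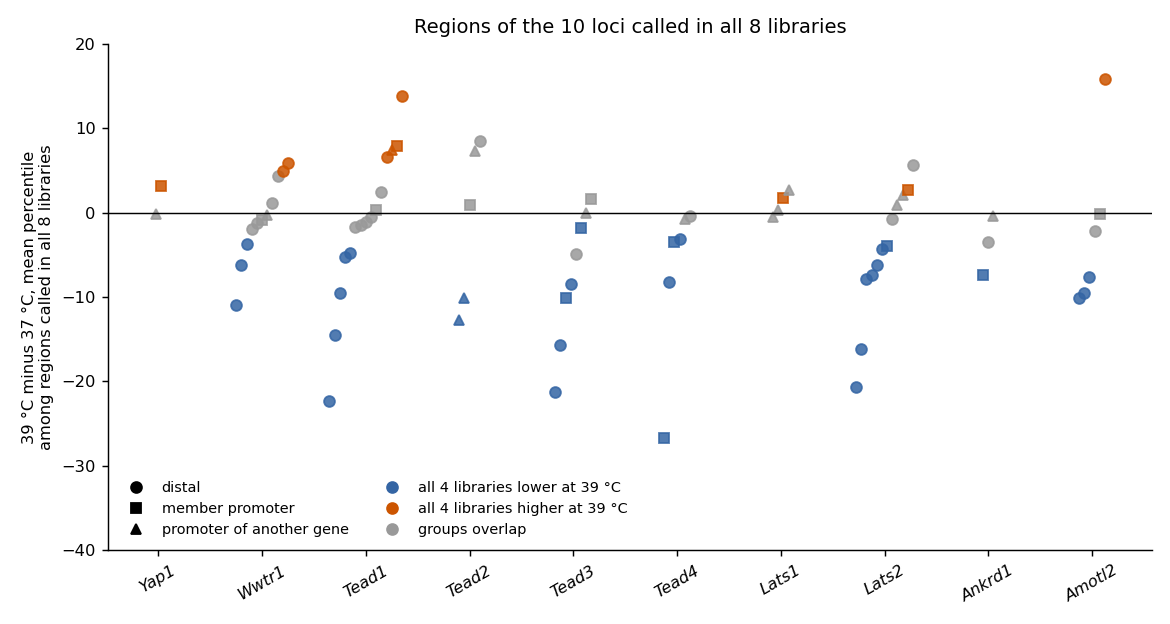
Difference in mean shared percentile (39 °C minus 37 °C, percentile points) for each of the 72 regions called in all 8 libraries, by gene. Shapes give the class of region, and colours give regions whose 4 libraries at 39 °C all lay below (blue) or above (orange) the 4 at 37 °C, with overlapping groups in grey. The 30 blue points outnumber the 10 orange points, and Tead2, Tead3, Tead4 and Ankrd1 have no orange point.

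The largest differences in list percentile were all downward. An intron of Tead1 119 kb into the gene (chr7:112796944-112798542) had list percentiles of 63.4, 52.9, 50.4 and 61.6 at 37 °C and 20.0, 25.3, 20.7 and 4.64 at 39 °C, and its shared percentile differed by -22.3. After the internal Tead4 start described above, the next were a start of Ccdc155 in the Tead2 locus (chr7:45204211-45205032, -30.0), an intron of Lats2 (chr14:57748859-57751479, -27.5), a site 19.5 kb upstream of Lats2 (chr14:57777327-57778470, -26.6) and the Tead3 intron (-26.6). Each was separated on the shared percentile as well.

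The largest upward differences with separated groups appeared on the shared percentile, a selection made after the values were seen. An intergenic site 43.1 kb upstream of Amotl2 (chr9:102673003-102674871) had shared percentiles of 19.4, 15.3, 22.3 and 22.4 at 37 °C and 30.5, 32.4, 40.1 and 40.0 at 39 °C. An intron of Tead1 84.4 kb into the gene (chr7:112763033-112764244) had 9.02, 13.7, 18.7 and 10.0 against 22.4, 27.5, 26.6 and 30.0. It lies next to the Tead1 region with its summit 81.6 kb in, which was also higher. The others were at Gm44462 within Tead1 (7.38 points), in a further Tead1 intron (6.61 points) and in a Wwtr1 intron (5.84 points). On the list percentile each of these sites overlapped between the temperatures.

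The TEAD core lay within 100 bp of the summit in 28 of the 155 regions (18.1%), against 16.9% of all consensus regions. The classes differed, with 14.0% of the 107 distal regions against 19.0% of distal consensus regions, and 27.1% of the 48 regions at starts against 10.9% of consensus regions at starts. Among the 30 regions lower on the shared percentile it was in 9 (30.0%), and among the other 125 it was in 19 (15.2%). These sets are unlike, since the 30 come only from the 72 regions called in all 8 libraries. The other 125 include regions that some libraries lack, which could not be counted as lower. By class these shares were 31.8% and 9.41% of distal regions and 25% and 27.5% of regions at starts. Over all consensus regions the core was in 22.7% of those lower on the shared percentile, and in 16.4% of those higher. By class it was in 26.4% of the lower distal regions and 14.2% of the lower regions at starts. Counting all regions of a locus, the core was in 6 of 28 at Tead1, 6 of 21 at Tead3, 5 of 22 at Wwtr1 and 0 of 6 at Lats1. The AP-1 site was in 20.6% of the 155 regions and in 29% of all regions. It too was in 9 of the 30 lower regions (30%), against 18.4% of the other 125. Over all consensus regions it was in 35.4% of those lower on the shared percentile and in 39.2% of those higher. The CArG box was in 1 of the 155, in the Ankrd1 locus, and in 0.972% of all regions.

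The 5 distal regions with a TEAD core and the largest differences in shared percentile downward, chosen after their values were seen, are shown as the 201 bases around their summits (mm10, plus strand). They are an intron of Tead1 (chr7:112700167-112700367), an intron of Wwtr1 (chr3:57550853-57551053), a site upstream of Tead1 (chr7:112663422-112663622), a site upstream of Tead3 (chr17:28368511-28368711) and an intron of Tead4 (chr6:128282288-128282488). The shared percentiles at 37 °C and 39 °C were 54.4 ± 1.40 and 40.0 ± 2.41 in the Tead1 intron, and 31.0 ± 1.18 and 20.1 ± 4.27 in the Wwtr1 intron. They were 67.3 ± 3.09 and 57.8 ± 2.02 upstream of Tead1, 21.6 ± 3.72 and 13.1 ± 4.25 upstream of Tead3, and 66.4 ± 2.09 and 58.2 ± 1.17 in the Tead4 intron. Each holds 1 core, in capitals.
Tead1 intron: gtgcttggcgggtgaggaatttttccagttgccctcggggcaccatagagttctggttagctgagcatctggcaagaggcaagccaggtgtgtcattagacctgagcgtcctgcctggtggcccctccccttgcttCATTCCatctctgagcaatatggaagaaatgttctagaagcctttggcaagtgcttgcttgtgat
Wwtr1 intron: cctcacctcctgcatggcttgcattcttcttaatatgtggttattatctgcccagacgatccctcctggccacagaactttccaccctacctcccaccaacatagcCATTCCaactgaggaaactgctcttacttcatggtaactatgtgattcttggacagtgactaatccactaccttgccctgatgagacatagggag
Upstream of Tead1: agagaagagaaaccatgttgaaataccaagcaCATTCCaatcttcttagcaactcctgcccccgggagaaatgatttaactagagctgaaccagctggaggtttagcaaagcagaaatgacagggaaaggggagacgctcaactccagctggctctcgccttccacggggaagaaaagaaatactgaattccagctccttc
Upstream of Tead3: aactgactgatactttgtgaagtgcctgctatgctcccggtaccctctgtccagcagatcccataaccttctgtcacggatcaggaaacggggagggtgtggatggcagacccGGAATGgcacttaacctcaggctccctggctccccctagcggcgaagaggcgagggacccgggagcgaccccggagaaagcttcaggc
Tead4 intron: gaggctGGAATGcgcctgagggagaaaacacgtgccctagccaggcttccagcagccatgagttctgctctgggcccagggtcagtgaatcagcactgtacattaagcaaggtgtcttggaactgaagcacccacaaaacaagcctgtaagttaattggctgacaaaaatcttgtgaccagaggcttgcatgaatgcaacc

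Promoters of the wider pathway were read from the same measures. Of 31 regulators of the Hippo kinases and of YAP, 29 had a promoter peak in all 8 libraries. Vgll1, a TEAD cofactor, had none, and Dchs1, a large cadherin upstream of the pathway, had one in 3 libraries at 37 °C and in 0 at 39 °C. By list percentile 15 of the 29 were lower and 0 higher, a share near the 52.4% of all promoters, with the largest difference at the TEAD cofactor gene Vgll2 (54.2 ± 2.83 against 32.9 ± 4.91). By shared percentile 1 was lower, Ajuba (89.3 ± 0.918 against 84.9 ± 0.736), whose LIM protein restrains LATS, and 1 was higher, Sav1 (88.8 ± 1.31 against 92.5 ± 0.500), the scaffold of the upstream kinases. The other 27 overlapped, and over all promoters 13.9% were lower and 8.44% higher.

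Of 19 other genes commonly used as targets of YAP and TAZ, all 19 had a promoter peak in all 8 libraries. By list percentile 12 were lower and 0 higher, where 52.4% of all promoters were lower. By shared percentile 6 were lower (Ccn1, Ccn2, F3, Igfbp3, Dock5 and Arhgef17) and 1 was higher (Crim1), where 13.9% and 8.44% of all promoters were, with a median difference of -1.26 points over the 19 genes and -0.0357 over all promoters. Igfbp3, a binding protein of insulin-like growth factors, had the largest shared-percentile difference of the 6 lower genes, at 63.6 ± 2.53 against 57.2 ± 0.976. Axl differed more in its means (82.1 ± 9.15 against 73.7 ± 6.99), but its groups overlapped. Ccn1 and Ccn2, the matricellular genes most often used as readouts, had high peaks at both temperatures, at 98.0 ± 0.550 against 96.9 ± 0.333 and 98.3 ± 0.600 against 96.7 ± 0.764. The lists of regulators and targets were not tested against each other.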

How the data were processed

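ATAC-seq was analysed in 8 SN4741 libraries, 4 per temperature, grouped by their labels. The authors aligned reads to mm10 and called peaks in each library separately, removing blacklisted regions. The submitters' processing notes name Bowtie2 2.4.1, SAMtools 1.15.1, Picard 2.26.11, MACS3 3.0.0a7 and bedtools 2.30.0. Per the file headers, MACS kept 1 fragment per position, used a q cutoff of 0.05 and had its local background turned off, so the deposited −log10(q-value) compares the deposited pileup signal with a background constant along the genome. No read counts per region were used here, so p-values rest on ranks and counts of peaks per library.

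From these lists, percentiles (ties counted midway), widths, distal counts and consensus regions (any overlap) were computed with Python 3.11.15, numpy 2.4.6 and pandas 2.3.3, and sequences were read with pysam 0.24.0. Genes came from GENCODE M21. Groups were compared by exact two-sided permutation tests across all genes or regions with Benjamini-Hochberg adjustment, and the code was tested on simulated data. Named were all 10 genes with their promoter peaks, all regions restricted to a temperature, the 6 largest differences per direction among regions called in all 8 libraries, and at most 5 genes per direction of each wider list. Ccn1, a sixth, the regions higher on the shared percentile and the 5 distal regions printed were added after their values were seen. Summits of the Ankrd1 and Amotl2 peaks lie at annotated UTRs, so short stretches around their TEAD cores were printed instead. The members and lists were chosen with earlier results of these data known. Alternatives were peaks with −log10(q) of at least 5, equal numbers of peaks, libraries under 100 M fragments, other flanks, promoter distances and overlap rules, ranking by pileup, a replicate block and leaving out each library.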

Additional observations from a re-analysis of the deposited data

Results flagged for a closer look

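Among the distal counts, list percentiles and widths of the 10 genes, 10 of 60 groups of 4 libraries held a value far from the other 3. Chance gives about 1 in 20 for independent values without ties. The groups share the same libraries and the counts hold ties, so the number of groups cannot be judged against that rate. Of these 10 values, 5 came from 37 °C replicate 3, the library with the fewest fragments (49.8 M). They were the list percentiles of Tead3 (91.4) and Amotl2 (98.7) and the promoter peak widths of Yap1 (2444 bp), Wwtr1 (4918 bp) and Ankrd1 (2787 bp), all below the other 37 °C libraries. The Tead3 value is of the gene-start region, because in this library the higher Rpl10a peak lay over 1 kb from every Tead3 start. In the other 37 °C libraries the Rpl10a peak lay within that distance and was counted. Within each region this library lay close to the others (91.4 against 91.3 to 92.5 at the gene start, 96.4 against 96.3 to 96.7 at Rpl10a). The part of depth in the other values was not tested. The width of Amotl2 in 37 °C replicate 1, the deepest library (169 M fragments), was above the others at 25517 bp. The width of Tead3 in 39 °C replicate 4, which has the shortest list, was below the others at 2689 bp. Among distal counts, 39 °C replicate 3 stood apart at Tead4 with 9 peaks, 39 °C replicate 1 at Lats1 with 1 peak, and 37 °C replicate 4 at Ankrd1 with 7 peaks, each against 3 libraries with equal counts.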

How the results depend on the processing

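Shares over all genes or regions under the same setting stand in parentheses. With equal numbers of peaks, 0 genes had fewer distal peaks at 39 °C (4.18%), 2 promoters were lower (15.4%) and 3 higher (7.75%), 28 regions called in all 8 libraries were lower (22.5%) and 9 higher (15.5%), and 5 regions were restricted to 37 °C (2.67%). With the shared percentile, 2 promoters were lower (13.9%) and 3 higher (8.44%), and 30 regions were lower (20.1%) and 10 higher (18.4%). Under the equal number and the shared percentile the mean promoter difference turned upward for Yap1 (2.52 and 3.16), Tead1 (0.0836 and 0.284), Tead2 (0.260 and 0.869) and Lats2 (1.64 and 2.03). With equal numbers the mean distal difference turned upward for Wwtr1 (0.500), Amotl2 (0.500) and Lats2 (0.750). In libraries under 100 M fragments (2 against 4, smallest exact p 0.0667) 1 region was higher (4.12%), and Lats2 percentile (0.261), Lats2 distal peaks (0.25) and Yap1 width (76.2 bp) turned upward. A flank of 20 kb or a promoter distance of 2 kb left 1 gene with fewer distal peaks (14.3% and 19.8%), and the 20 kb flank gave Tead3 a difference of 0.25. Restricted regions at 37 °C numbered 13 under a required coverage of 50% (6.76%) and 4 in windows around summits (4.53%), where 2 were restricted to 39 °C (0.694%).

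Leaving out 1 library gave 2 to 8 narrower promoters (23.4% to 49.1%), with 8 without 37 °C replicate 3 (49.1%) and 4 without 39 °C replicate 1 (33.5%) or 2 (27.7%). It gave 8 to 21 regions restricted to 37 °C (6.14% to 10.4%), with 21 without 37 °C replicate 3, 5 to 7 lower promoters (52.6% to 62.7%), 46 to 53 lower regions (54.3% to 65.8%) and 3 or 4 genes with fewer distal peaks (21.8% to 29.9%). It turned the sign of some small mean differences, which ranged from -0.105 to 0.222 for Lats1 percentile (below 0 without 37 °C replicate 3 or 39 °C replicate 1), from -0.638 to 0.0791 for Lats2 percentile and from -3.08 to 0.25 for Lats2 distal peaks (both above 0 without 39 °C replicate 4), from -0.167 to 0.75 for Ankrd1 distal peaks (below 0 without 39 °C replicate 3) and from -105 to 54.1 bp for Yap1 width. With the replicate block, 5 genes had fewer distal peaks (26.9%) and 8 a narrower promoter (46.4%), counted where all 4 pairs had the same direction, for which the exact sign-flip p was 0.125, the smallest it can give. Libraries with the same number did not deviate together (correlations from -0.479 to 0.256, 1 of 4 over 0.1), and the main tests used no pairing. With so few libraries this check cannot decide whether same-numbered libraries shared a culture or a day. The alternatives for the target genes and for the regions higher on the shared percentile were chosen after seeing the data. The cause of these changes was not tested. Peak lists without counts limit the comparison to ranks, widths and presence.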
